A study of Mus musculus with 35 samples.

Results

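The RNA of sgScramble leukemia cells was compared between mice that received chemotherapy on a diet free of branched-chain amino acids and mice that received vehicle on a standard amino acid diet. The comparison takes 12 of the 35 samples of the series, chosen by library number: 7 treated mice (libraries 11, 12 and 17 to 21) and 5 vehicle mice (libraries 1 to 5), out of 23 RNA libraries in all. The leukemia carried the MLL-AF9 fusion gene and GFP, which the labels place under the ubiquitin transporter. It came from 1 terminally ill mouse and was expanded ex vivo in medium with SCF, IL-3 and IL-6, so all 12 samples descend from 1 donor leukemia. Each recipient was a male of 8 to 10 weeks, of a strain not given in the sources used here, and received 1000000 leukemia cells into the retro-orbital vein. The treated mice received cytarabine at 100 mg/kg daily for 5 days and doxorubicin at 3 mg/kg daily for the first 3 of them (the 5+3 scheme), injected into the abdomen. The vehicle mice were injected with PBS. All 12 leukemias carried sgScramble, the control guide of the series, whose other arm carried a guide against Ogfod1. GFP-positive viable bone marrow cells were sorted when the response to chemotherapy was at its greatest, and RNA libraries were made by Smart-seq2. Diet and drugs changed together, so the effect of one cannot be told apart from that of the other. Because these are bulk samples, fewer cells of a type and less RNA per cell cannot be told apart either. The labels call the samples of a group biological replicates.

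Cytarabine is a nucleoside analog that stalls replication once built into DNA, and doxorubicin traps topoisomerase II on cut DNA. Damaged DNA stabilizes the transcription factor p53, which turns on genes of cell cycle arrest, repair and cell death, and indirectly lowers genes of mitosis. Leucine, isoleucine and valine are sensed by the kinase complex mTORC1, and uncharged tRNA activates GCN2, which favors translation of ATF4, a transcription factor of amino acid import and synthesis genes. MLL-AF9 leukemia cells resemble granulocyte-monocyte progenitors and keep high levels of Hoxa9 and Meis1.

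Library totals ran from 31.9 to 63.6 M counts (M, 1000000) in the vehicle mice and from 56.1 to 143 M counts in the treated mice (means 52.0 ± 12.4 (SD, n = 5) and 78.8 ± 29.2 (SD, n = 7), exact two-sided permutation p = 0.0152, adjusted over 4 such comparisons 0.0304). The share of counts from the mitochondrial genome was 0.924% ± 0.111 (SD, n = 5) in vehicle and 0.621% ± 0.205 (SD, n = 7) in treated mice (exact two-sided permutation p = 0.0101, adjusted 0.0304). Treated mouse 4 stood apart on the first principal component, which held 45.1% of the variance, and had the lowest mitochondrial share, 0.227%. Treated mice 4, 6 and 7 also held the most RNA of macrophage markers. The 20 genes of that list summed to 8860, 4770 and 5090 counts per M counts of the scaled library (CPM) there, against 1120 to 1590 in treated mice 1, 2, 3 and 5 and 925 to 1300 in vehicle, where one gene, Adgre1, made up 344–462. List counts that move by over 1.5 times without those 3 libraries, and calls of named genes that are lost without them, are therefore given both ways.

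Defining genes of MLL-AF9 leukemia were detected in all 12 samples. Hoxa9, the homeobox gene that MLL fusions drive, stood at 151, 196, 175, 157 and 199 CPM in the vehicle mice and 163 to 386 (median 230) in the treated mice, and Meis1, its partner, at 152–198 and 128–241. Neither passed edgeR's quasi-likelihood test (Hoxa9 log2 fold change 0.42 ± 0.26, adjusted p = 0.303, and Meis1 0.055 ± 0.13, adjusted p = 0.841). Here and below the adjusted p is that of this test with Benjamini-Hochberg adjustment. The value after ± is a standard error derived from the test, as the absolute log2 fold change over the square root of its F statistic. Markers of other cell types were also summed. The 18 erythroid markers summed to 100 to 108 CPM in vehicle and 111 to 177 in treated mice, without overlap, and 9 of them stayed under 1 CPM in all 12. Of 17 erythroid markers tested 2 rose and 1 fell, with a median log2 fold change of -0.322 (1 and 1 without mice 4, 6 and 7). The 24 T and NK cell markers summed to 55.8 to 70.7 CPM in vehicle and 46.6 to 87.6 in treated mice, with 7 under 1 CPM throughout. Of 19 T and NK cell markers tested 4 rose and 0 fell, with a median log2 fold change of 1.4 (2 rose and 0 fell without mice 4, 6 and 7). The 18 B and plasma cell markers summed to 106 to 174 CPM in vehicle, to 46.2 to 65.1 in 6 treated mice and to 177 in treated mouse 6, with 7 under 1 CPM throughout; of 16 tested 2 rose and 1 fell (0 and 1 without mice 4, 6 and 7). The sums of the 14 megakaryocyte and platelet markers (245 to 342 CPM in vehicle, 361 to 1630 in treated mice) and of the 20 stromal and endothelial markers (244 to 313 and 331 to 729 CPM) were higher in every treated mouse than in any vehicle mouse. Of 13 of the former tested 4 rose and 1 fell, with 4 members under 1 CPM throughout, and of 14 of the latter 4 rose and 0 fell, with 6 under 1 CPM (2 rose without mice 4, 6 and 7). The part of such cells in the results below was not tested.

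Of 21474 genes tested, 2779 passed an adjusted p of 0.05 (12.9%): 1846 were higher in the treated mice (8.6%) and 933 lower (4.34%). In 1275 genes (5.94%) all 7 treated mice lay above all 5 vehicle mice, and in 1363 (6.35%) all 7 lay below. These shares are the background against which the counts below are read. Among the 14335 protein-coding genes alone 2371 passed, a larger share than over all genes tested. The median log2 fold change was 1.19 among the genes that rose and -0.76 among those that fell, and 308 of the former passed 3 while 33 of the latter passed -3. The median over all genes tested was -0.0059. Without vehicle mouse 4, 1834 genes passed. Without treated mice 4, 6 and 7, 1468 genes passed, and 804 of the 1846 higher and 446 of the 933 lower calls remained. All 1837 of the higher calls that could still be tested, and all 933 lower ones, kept their direction, in mice that the first count also used. With limma's voom and quality weights in place of edgeR, 5702 genes passed, 50.5% of them higher, against 66.4% in the main count. When the trend of fold change with transcript length was removed, 2794 genes passed and 1695 higher and 750 lower calls remained. The treatment effect in sgScramble was also set against that in the 5 vehicle and 6 treated sgOgfod1 leukemias. In edgeR's test of the difference 0 of 21474 genes passed (975 at an unadjusted p under 0.05; smallest adjusted p 0.461).

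**Figure D1:**
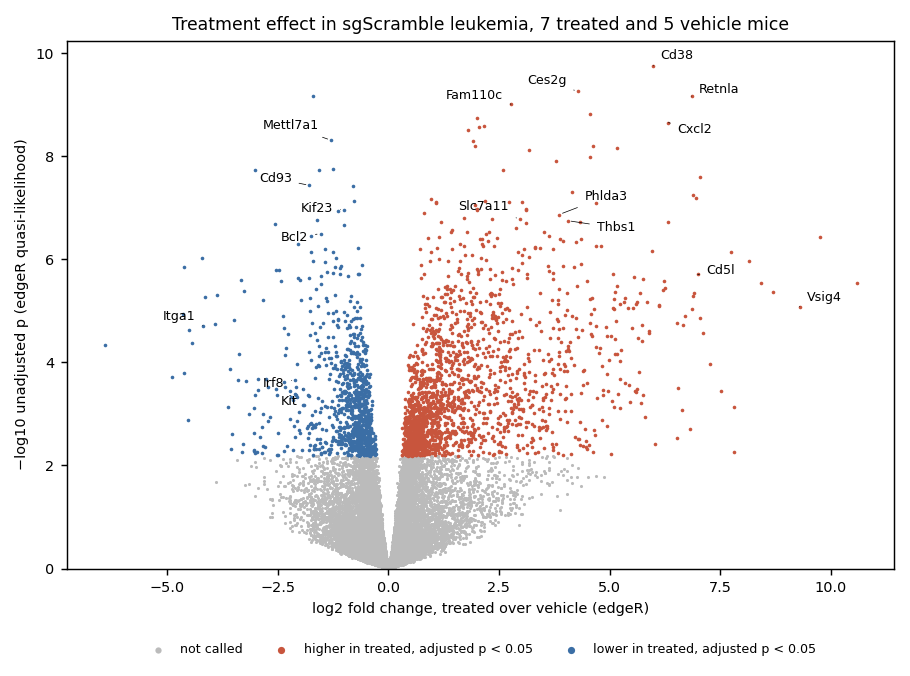
Each point is 1 of 21474 genes, with its log2 fold change (treated over vehicle) on the x axis and −log10 of its unadjusted edgeR p on the y axis; red points are the 1846 genes called higher and blue points the 933 called lower. More of the higher calls than of the lower ones lie far from 0: 308 passed 3 and 33 passed -3.

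The genes with the smallest p among those that rose included several surface and secreted proteins. Cd38, the ectoenzyme that consumes NAD, stood at 1.86, 2.85, 3.21, 1.88 and 3.86 CPM in vehicle mice and at 61.2 to 494 (median 124) in treated mice (log2 fold change 5.99 ± 0.56, adjusted p = 3.64e-06). The lowest treated mouse was thus far above every vehicle mouse, and the value was 5.03 (adjusted p = 3.15e-07) without mice 4, 6 and 7. Retnla, a secreted resistin-like protein of alternatively activated macrophages, rose from 0.236–1.18 to 29.5–117 CPM (6.85 ± 0.68, adjusted p = 3.64e-06). Cxcl2, a chemokine that draws neutrophils, rose from 0.148–0.535 to 8.15–56.3 CPM (6.33 ± 0.67, adjusted p = 5.79e-06). Wfdc21, a small secreted protein, rose from 3.62–7.21 to 28.5–254 CPM (4.56 ± 0.47, adjusted p = 5.42e-06). F2rl2, a protease-activated receptor, was at 0.531, 0.578, 0.303, 0.528 and 1.01 CPM in vehicle and 9.61 to 22.7 (median 14.9) in treated mice (4.61 ± 0.52, adjusted p = 8.94e-06). For none of these 5 genes did the groups overlap, and all 5 passed without the 3 macrophage-rich libraries.

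Several of the others were of moderate level. The carboxylesterase Ces2g rose from 0.0885–1.02 to 7–16.9 CPM (log2 fold change 4.28), and Fam110c from 4.85–9.07 to 30.7–62.1 (2.77). The B-cell scaffold gene Bank1 rose from 8.92–17.2 to 31.5–60.9 CPM (1.80) and Cdk18, a cyclin-dependent kinase of the PCTAIRE group, from 2.03–3.11 to 9.32–13.8 (2.17). Slc52a3, a riboflavin transporter, rose from 3.31–3.75 to 9.32–24 CPM (1.95), Crispld2 from 7.42–14.9 to 32.7–60.7 (1.90) and Ccdc122 from 7.5–11.2 to 25.8–65.5 (1.99). Their edgeR adjusted p-values lay between 3.64e-06 (Ces2g) and 8.94e-06 (Slc52a3), and all 7 passed without the 3 macrophage-rich libraries.

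The falls with the smallest p were of smaller fold. Cd93, a surface lectin-like protein of progenitors and monocytes, stood at 139, 169, 145, 151 and 169 CPM in vehicle and 22.2 to 75.9 (median 43.9) in treated mice (-1.78 ± 0.22, adjusted p = 3.07e-05). Papss2, which makes the sulfate donor PAPS, fell from 88.4–124 to 29.2–39.6 CPM (-1.58 ± 0.19, adjusted p = 1.74e-05), and Arhgap17, a GTPase-activating protein, from 83–106 to 26.7–47.7 (-1.25 ± 0.15, adjusted p = 1.74e-05). In all 3 the highest treated mouse was below the lowest vehicle mouse. Krr1, a factor of small ribosomal subunit assembly, fell from 418–582 to 180–281 CPM (-1 ± 0.14, adjusted p = 7.98e-05). Its footprints in the 4 treated and 3 vehicle mice with a ribosome library gave 0.013 (adjusted p = 0.955), a difference from RNA that was not tested. Pank1, the enzyme that commits pantothenate to coenzyme A, fell from 29.6–35.8 to 7.54–15.3 CPM (-1.62), Mettl7a1 from 26.8–34.7 to 9.77–14.8 (-1.29) and Sowahc from 44.4–62.7 to 8.15–17.6 (-1.76). The girdin gene Ccdc88a fell from 51.5–65.6 to 19.5–36.3 CPM (-1.13), and the membrane protein genes Tmem135 and Tmem229b fell by less (-0.77 and -0.80). The groups of these 7 genes did not overlap either, and all passed without mice 4, 6 and 7.

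Of 46 p53 targets tested, 24 rose, 0 fell and 22 did not pass, with a median log2 fold change of 0.67, and in 21 all treated mice lay above all vehicle mice. The list summed to 1850–2140 CPM in vehicle and 2590–5350 in treated mice. Cdkn1a, the p21 inhibitor of cyclin-dependent kinases, stood at 74, 79, 72, 80.2 and 57.2 CPM in vehicle and 175 to 715 (median 225) in treated mice (2.06 ± 0.37, adjusted p = 0.000762). Treated mouse 4 was the high extreme and mouse 5 the lowest treated one, still above all vehicle mice. Ccng1, cyclin G1, stood at 263, 345, 257, 246 and 271 CPM against 407 to 1500 (median 644) (1.38 ± 0.23, adjusted p = 0.000424). Phlda3, an inhibitor of AKT signaling, went from 0.892–2.17 to 11.8–67.3 CPM (3.86 ± 0.52, adjusted p = 6.3e-05). Plk2, a polo-like kinase, went from 1.49–2.55 to 9.39–95.3 (3.73 ± 0.59, adjusted p = 0.000272); its highest value was again mouse 4. Zmat3, an RNA-binding p53 effector, was more even across mice, at 1.27, 2.17, 2.37, 2.23 and 3.89 CPM in vehicle and 7.35 to 14.5 (median 10.6) in treated (2.09 ± 0.33, adjusted p = 0.000251).

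Other members rose as well. Mdm2, the ubiquitin ligase that degrades p53, rose from 134–164 to 176–266 CPM (0.63 ± 0.13, adjusted p = 0.00318), Ada, adenosine deaminase, from 14.2–17 to 32.9–79.2 (1.44 ± 0.20, adjusted p = 9.84e-05) and Cd80, a costimulatory ligand, from 3.73–5.86 to 13.7–48.4 (2.38 ± 0.35, adjusted p = 0.000139). Trp53 itself, at 80.4–111 and 59–95.8 CPM, did not pass (-0.26 ± 0.12, adjusted p = 0.177). Without treated mice 4, 6 and 7, 16 members rose and 0 fell, with a median of 0.52, and Cdkn1a was 1.44 (adjusted p = 0.00556). The footprints came from 7 of the same mice and so are not independent. Treated mice 4, 6 and 7 were not among them. In the footprints Cdkn1a gave 1.15 (adjusted p = 0.00659), Ccng1 1.23 (adjusted p = 0.000196) and Trp53 -0.46 (adjusted p = 0.00965). A p53 element within 250 bases before to 50 after a RefSeq start (GRCm38.p6) was found in 1 of 36 members with a promoter sequence, Cdkn1a, and in 0.074% of 27025 genes. Only exact matches to the full element were counted, so sites with a mismatch or outside this window were missed.

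Among the 17 BCL2 family genes tested, 6 rose and 1 fell (median 0.44), and without mice 4, 6 and 7, 2 rose and 1 fell. Bcl2, the antiapoptotic founder of the family, fell from 65.7, 67.1, 70.4, 75.6 and 74.4 CPM in vehicle to 9.89 to 29.7 (median 26.3) in treated mice (-1.53 ± 0.22, adjusted p = 0.000106), with no overlap. Bcl2l1, which encodes BCL-XL, moved the other way, from 24.8, 22.2, 21.8, 26.1 and 26.5 CPM to 38.8 to 67.7 (median 48.5) (1.07 ± 0.14, adjusted p = 4.75e-05). Both calls held without mice 4, 6 and 7 (-1.39 and 0.86; adjusted p = 0.000212 and 0.000187). The antiapoptotic Bcl2a1a rose from 4.24–7.35 to 10.1–34.2 CPM (1.84 ± 0.31, adjusted p = 0.000469), although its copies Bcl2a1b and Bcl2a1d are nearly identical and reads may be split among them. The death effector Bax, also a p53 target, rose from 52.9–67 to 85–232 CPM (1.03 ± 0.27, adjusted p = 0.012), and was 0.71 (adjusted p = 0.079) without the 3 libraries. Mcl1, at 354–485 and 437–776 CPM, did not pass (0.43 ± 0.20, adjusted p = 0.159).

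**Figure D2:**
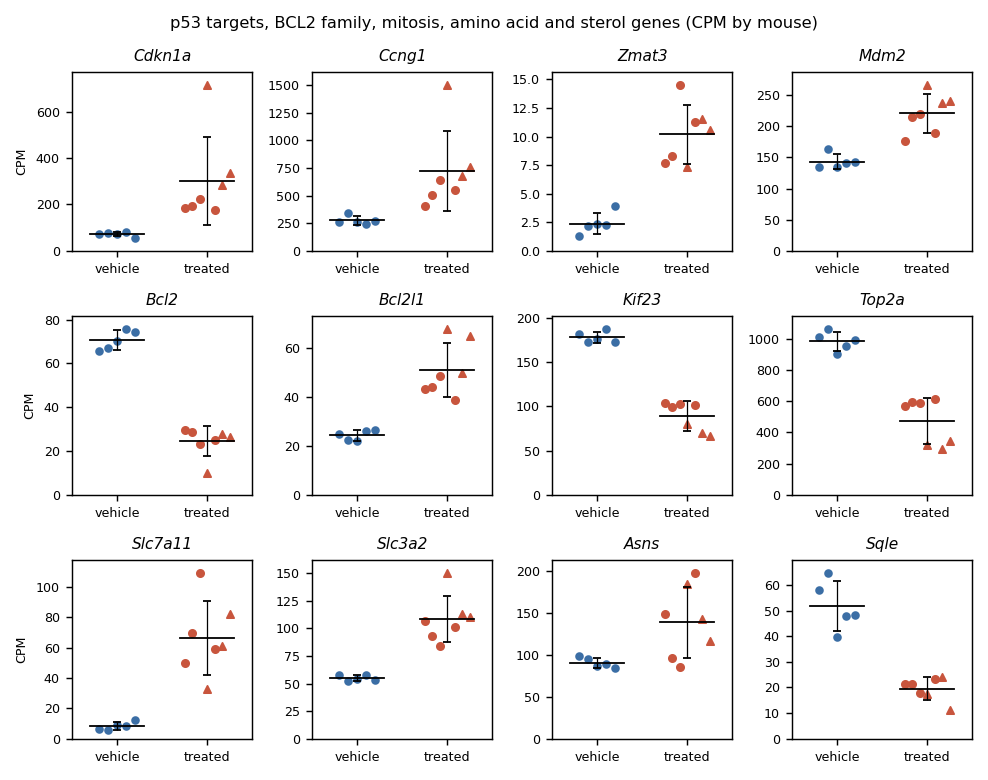
CPM (y axis) of 12 genes in the 5 vehicle mice (blue) and 7 treated mice (red), 1 point per mouse; triangles are treated mice 4, 6 and 7, and bars give mean and SD. Cdkn1a, Ccng1, Zmat3, Mdm2, Bcl2l1, Slc7a11 and Slc3a2 lie higher in treated mice and Bcl2, Kif23, Top2a and Sqle lower, without overlap, whereas the groups overlap for Asns.

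Most mitotic genes tested fell, whereas few replication genes passed in either direction. Of 60 mitosis genes tested, 35 fell and 1 rose (median -0.56), and in 36 all treated mice lay below all vehicle mice. Of 60 genes of replication and the G1/S transition, 4 fell and 3 rose (median -0.043), and 1 of each without mice 4, 6 and 7. Without 1 library 2 to 5 of them fell and 0 to 3 rose. Kif23, the kinesin of the central spindle, stood at 181, 173, 176, 187 and 172 CPM in vehicle and 66 to 104 (median 99.3) in treated mice (-0.998 ± 0.13, adjusted p = 5.59e-05). Top2a, the topoisomerase that doxorubicin targets, stood at 1010, 1060, 899, 952 and 993 CPM and 291–612 (-1.05 ± 0.24, adjusted p = 0.0059). Mice 4, 6 and 7 were the lowest treated mice for both genes, and without them Top2a was -0.72 (adjusted p = 0.0826) and Kif23 -0.79 (adjusted p = 0.000525). Aspm, a spindle pole protein, fell from 101–109 to 13.2–61.2 CPM (-1.30 ± 0.28, adjusted p = 0.00329), the spindle checkpoint kinase Ttk from 80.6–103 to 39–63 (-0.80 ± 0.15, adjusted p = 0.00091) and the spindle bundler Prc1 from 260–297 to 88.1–191 (-0.90 ± 0.19, adjusted p = 0.00295; -0.58 (adjusted p = 0.0263) without the 3). Mki67, at 318–375 against 41.7–249 CPM, had no overlap but did not pass (-0.77 ± 0.30, adjusted p = 0.0932). Without the 3 libraries 11 mitosis genes fell and 1 rose, with a median of -0.36. With a replicate block, although same-numbered mice are different animals, 19 fell and 0 rose.

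On the replication side the calls were marginal. Rrm2, the small subunit of ribonucleotide reductase, was at 395–488 CPM in vehicle and 459–700 in treated mice (0.36 ± 0.12, adjusted p = 0.0433), and gave 0.40 (adjusted p = 0.0541) without mice 4, 6 and 7. It no longer passed in most fits without 1 library (adjusted p = 0.0555 to 0.126 when vehicle mouse 1, 2, 3, 4 or 5 or treated mouse 1, 2, 3, 5, 6 or 7 was left out). Of 49 DNA repair genes 8 fell and 0 rose (median -0.27), 5 fell when any 1 of the 5 vehicle mice was left out, and 4 fell without mice 4, 6 and 7. Among the 8 were 2 damage kinases: Chek2 from 49.3–56.9 to 26.6–41.7 CPM (-0.59 ± 0.12, adjusted p = 0.00287) and Atm from 46.3–55.1 to 3.9–33.7 (-1.10 ± 0.34, adjusted p = 0.0324), where mouse 4 was the lowest. Atm was -0.66 (adjusted p = 0.0926) without mice 4, 6 and 7, and its call was not stable to single libraries (adjusted p = 0.0538 to 0.0711 when vehicle mouse 1, 2, 3, 4 or 5 or treated mouse 6 or 7 was left out).

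Promoters of mitotic genes commonly hold a cell-cycle homology region (TTTGAA or TTTAAA) and CCAAT boxes, the sites through which the DREAM complex and NF-Y act. Searched on both strands in the window from 250 bases before to 50 after the RefSeq start (GRCm38.p6), the former was present in 38 of 50 members with a promoter sequence (76%) and in 30.6% of 27025 genes, and CCAAT in 36 of 50 (72%) and 41.1%. Among the 31 members that passed the test 23 held the homology region, and among the other 19 members 15 did. CCAAT lay in 19 of the 31 and in 17 of the other 19. The windows before the start of 3 members that fell are shown as examples, chosen after their values were seen; they hold the region 24, 24 and 17 bases before the start. It is in capitals, together with any CCAAT on either strand, which does not overlap it here: Ckap2l (chr2:129297213-129297267, minus strand), Prc1 (chr7:80294421-80294475, plus strand) and Top2a (chr11:99024190-99024237, minus strand).
Ckap2l: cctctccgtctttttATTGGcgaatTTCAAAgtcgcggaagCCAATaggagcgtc
Prc1: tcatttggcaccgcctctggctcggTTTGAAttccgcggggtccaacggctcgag
Top2a: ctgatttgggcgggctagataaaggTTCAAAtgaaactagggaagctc
Ckap2l, a mitotic spindle protein, fell from 163–187 to 70.2–119 CPM (-0.86 ± 0.18, adjusted p = 0.00242). These matches describe the sequence and show no binding.

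A share of 36.1% of amino acid response genes passed, against 12.9% of all genes tested. Of 36 ATF4 response genes tested, 11 rose and 2 fell (median 0.48), and in 4 of the 36 all treated mice lay above all vehicle mice. The count that rose was 6 without vehicle mouse 1 or 5 and 7 without vehicle mouse 3 or 4. Slc7a11, the cystine importer, stood at 6.32, 5.95, 9.22, 8.07 and 12.6 CPM in vehicle and 32.7 to 109 (median 61) in treated mice (2.97 ± 0.40, adjusted p = 7.31e-05). Its partner Slc3a2, the heavy chain shared with the leucine transporter, stood at 57.6, 52.5, 53.9, 57.8 and 53.6 CPM and 84.3 to 150 (median 107) (0.97 ± 0.13, adjusted p = 4.75e-05). Both passed without mice 4, 6 and 7, at 3.10 and 0.82 (adjusted p = 0.000126 and 0.000206). Sesn2, the leucine sensor that is also a p53 target, rose from 10.9–13.4 to 23.2–52.3 CPM (1.42 ± 0.25, adjusted p = 0.000667).

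Among other genes commonly read as GCN2 targets, several did not pass. Asns, asparagine synthetase, stood at 98.4, 94.3, 86.4, 88.4 and 84.3 CPM in vehicle and 85.6 to 197 (median 143) in treated mice and did not pass (0.61 ± 0.26, adjusted p = 0.132): treated mice 2 and 3, at 95.8 and 85.6 CPM, were within the vehicle range. Atf4 (89.7–130 and 101–183 CPM; 0.30 ± 0.14, adjusted p = 0.15) and Ddit3, which encodes CHOP (22.9–26.8 and 17.6–28.6 CPM; -0.11 ± 0.13, adjusted p = 0.639), did not pass. Chac1, Trib3 and Ddit4 rose with overlap between the groups (1.20, 1.77 and 1.93; adjusted p = 0.0254, 0.0371 and 0.00473), from vehicle levels of at most 3.6 CPM. Without mice 4, 6 and 7 Chac1 was 0.88 (adjusted p = 0.0682), Trib3 1.06 (adjusted p = 0.311) and Ddit4 1.33 (adjusted p = 0.0323), and the list stood at 4 higher and 1 lower. Trib3 and Chac1 were also lost without single libraries (Trib3 adjusted p = 0.054 to 0.108 when vehicle mouse 1, 3, 4 or 5 or treated mouse 4, 5, 6 or 7 was left out; Chac1 adjusted p = 0.0508 to 0.0796 when vehicle mouse 3, 4 or 5 or treated mouse 4 was left out).

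Sites of the C/EBP-ATF type to which ATF4 binds (TGATGNAA, both strands) lay in 12 of 32 ATF4 response genes with a promoter sequence (37.5%) and in 4.51% of all genes. They were in 5 of the 12 that passed the test and in 7 of the other 20. Slc7a11 (chr3:50443628-50443704, minus strand) is shown because it had the smallest p among members with a site, and holds 2 such sites in opposite orientation, in capitals, of which the nearer ends 39 bases before the start.
Slc7a11: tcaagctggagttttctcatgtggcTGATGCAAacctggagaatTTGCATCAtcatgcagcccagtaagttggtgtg

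In the other amino acid lists few members passed. Of 28 transporters 4 rose and 0 fell (median 0.14), 2 of them Slc7a11 and Slc3a2. Of 20 tRNA synthetases 2 rose and 0 fell (median 0.26), and 0 of either direction without mice 4, 6 and 7. The count that rose was 7 without treated mouse 3, 0 without vehicle mouse 1 or 3 and 1 without treated mouse 4 or 6 or vehicle mouse 2, 4 or 5. Of 29 genes of branched-chain amino acid breakdown 2 rose and 3 fell (median -0.014). That share of 17.2% lay near the background, 12.9% of all genes and 2371 of 14335 protein-coding genes. Without 1 library 1 to 3 of the 29 rose and 0 to 5 fell. The counts were 1 and 0 without vehicle mouse 2, 1 and 1 without vehicle mouse 4, and 1 and 5 without treated mouse 4. Without mice 4, 6 and 7, 0 rose and 4 fell. Ppm1k, the phosphatase that activates the branched-chain ketoacid dehydrogenase, fell from 6.1–9.57 to 3.41–6.82 CPM (-0.67 ± 0.21, adjusted p = 0.0329), though it did not pass once the length trend was removed (adjusted p = 0.103) nor in several fits without 1 library (adjusted p = 0.0544 to 0.111 when vehicle mouse 2, 3 or 4 or treated mouse 1 or 2 was left out). Of 47 genes of mTORC1 and its sensors 4 rose and 3 fell (median -0.056), and without mice 4, 6 and 7, 1 rose and 0 fell. Without 1 library the counts ran from 2 higher and 1 lower (without vehicle mouse 1, 2, 3 or 5) to 7 higher and 3 lower (without treated mouse 1). Of 28 genes of the unfolded protein and heat shock responses 1 fell and 0 rose.

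Some genes that handle the drugs passed. Of 18 cytarabine genes 5 rose and 0 fell (1 rose without mice 4, 6 and 7, and 3 without vehicle mouse 1, 2 or 5). Dck, the kinase that activates cytarabine, stood at 106, 121, 108, 114 and 114 CPM in vehicle and 96 to 129 (median 117) in treated mice (-0.0031 ± 0.13, adjusted p = 0.992). Samhd1, the hydrolase that breaks down active cytarabine, stood at 99.9, 107, 85.9, 97.1 and 102 CPM against 133 to 1000 (median 216) (1.87 ± 0.43, adjusted p = 0.00552). Mice 4, 6 and 7 were the 3 highest for Samhd1, which macrophages also express, and without them it was 0.85 (adjusted p = 0.0955). Of 20 doxorubicin genes 3 rose and 2 fell, and without the 3 libraries 1 rose and 1 fell. Without 1 library 2 to 5 rose (5 without treated mouse 3) and 1 or 2 fell (2 without treated mouse 4 or 7). The efflux pump Abcb1b fell from 19.4, 19.1, 16.4, 19.2 and 18.2 CPM to 0.0582 to 9.7 (median 2.41) (-2.52 ± 0.84, adjusted p = 0.0487), with -3.25 (adjusted p = 0.0238) without the 3 libraries and footprints at -3.10 (adjusted p = 4.1e-05). Although its groups lay far apart, the call depended on single libraries (adjusted p = 0.061 to 0.0886 when vehicle mouse 1, 2, 3, 4 or 5 or treated mouse 1, 2, 3, 5 or 6 was left out) and was lost with a term for library number (adjusted p = 0.516). The quinone reductase Nqo1 rose from 0.571–1.68 to 2.99–5.82 CPM (1.78 ± 0.33, adjusted p = 0.00109).

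Several progenitor genes fell, while Hoxa9 and Meis1 did not pass. Of 36 MLL-AF9 and stemness genes 2 rose and 6 fell (median -0.27), whereas without mice 4, 6 and 7, 3 rose and 3 fell (median -0.037). The count that rose was 1 without treated mouse 2 or 4 or vehicle mouse 1, 2, 4 or 5. Of 24 progenitor receptors 1 rose and 4 fell, and without mice 4, 6 and 7, 1 rose and 9 fell. Kit, the SCF receptor, stood at 211, 232, 204, 259 and 278 CPM in vehicle and at 132, 97.4, 61.4, 3.26, 67.6, 46.1 and 25.5 in treated mice 1 to 7 (-1.94 ± 0.46, adjusted p = 0.00703). Cd34, the sialomucin of early progenitors, stood at 245, 261, 204, 283 and 235 CPM and 34.5 to 112 (median 69.9) (-1.81 ± 0.44, adjusted p = 0.00825). The groups did not overlap for either gene. Without mice 4, 6 and 7 Kit was -1.39 (adjusted p = 0.00359) and Cd34 -1.52 (adjusted p = 0.0814), and in the footprints they gave -1.57 (adjusted p = 0.00524) and -1.72 (adjusted p = 0.00739). With a term for library numbers from 17 up, which sets treated mice 3 to 7 apart from all others here, neither passed (adjusted p = 0.0809 and 0.117).

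Among 29 myeloid transcription factors 10 rose and 4 fell (6 rose without vehicle mouse 1 or 2), but without mice 4, 6 and 7, 2 rose and 3 fell. Irf8, which directs monocyte fate, stood at 139, 107, 139, 160 and 106 CPM in vehicle and 7.8 to 58.2 (median 25.7) in treated mice (-2.10 ± 0.48, adjusted p = 0.00529), and fell further without mice 4, 6 and 7, at -2.88 (adjusted p = 0.00237). Irf8 did not pass with the term for library number (adjusted p = 0.309), which marks treated libraries alone. Runx1, a core hematopoietic factor, fell from 62.4–78.7 to 7.8–36.5 CPM (-1.38 ± 0.24, adjusted p = 0.000562). Spi1, which encodes PU.1, rose from 215–280 to 302–924 CPM (0.89 ± 0.23, adjusted p = 0.0115) but was 0.52 (adjusted p = 0.0613) without the 3 libraries. Gfi1, a granulocyte factor, showed the reverse: mice 4 and 7, at 176 and 162 CPM, fell within the vehicle range of 157–183, the call was 0.42 ± 0.13, adjusted p = 0.0266, and without the 3 libraries it was 0.64 (adjusted p = 0.000641). It no longer passed in some fits without 1 library (adjusted p = 0.0503 to 0.071 when vehicle mouse 1, 2, 3 or 5 or treated mouse 2 was left out).

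**Figure D3:**
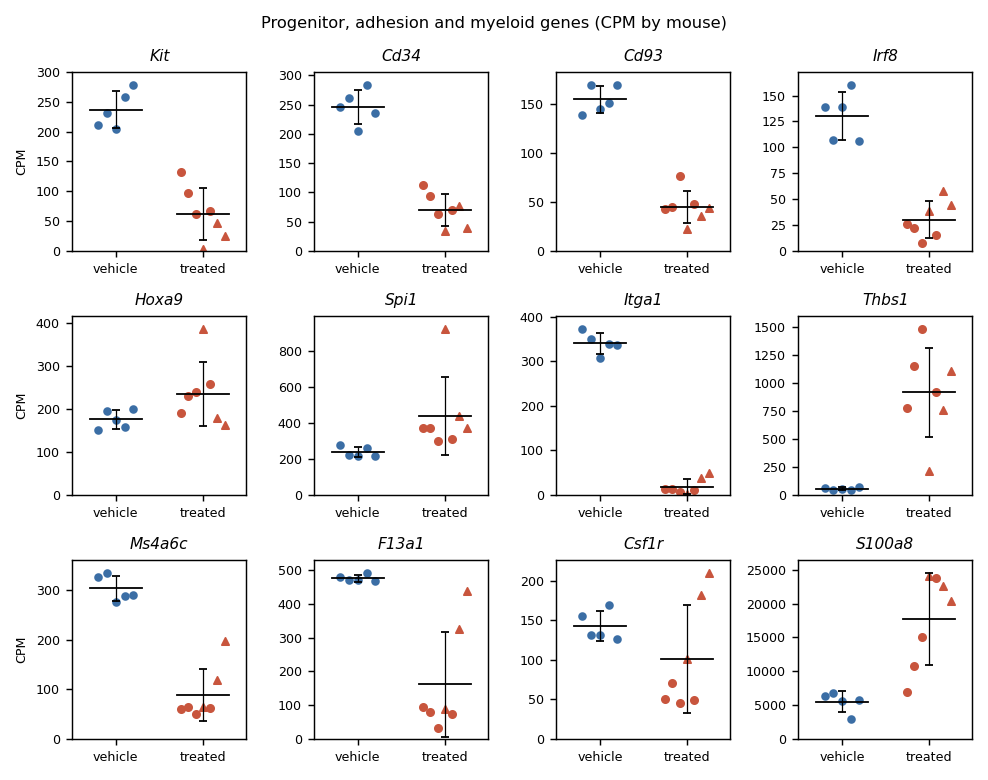
CPM (y axis) of 12 genes in the 5 vehicle mice (blue) and 7 treated mice (red), 1 point per mouse; triangles are treated mice 4, 6 and 7, and bars give mean and SD. Kit, Cd34, Cd93, Irf8, Itga1, Ms4a6c and F13a1 lie lower in every treated mouse, whereas Csf1r is low in treated mice 1, 2, 3, 4 and 5 and above the vehicle range in mice 6 and 7.

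Monocyte genes divided, and their median changed sign without the macrophage-rich mice. Of 30 tested 8 rose and 6 fell with a median of 0.13; without mice 4, 6 and 7, 3 rose and 11 fell with a median of -0.56. The count that fell was 3 when treated mouse 1, 2 or 5 or any 1 vehicle mouse was left out. Ms4a6c, a tetraspan of monocytes with close copies in its cluster, stood at 327, 334, 276, 288 and 290 CPM in vehicle and 50.8 to 198 (median 63.9) in treated mice (-1.78 ± 0.32, adjusted p = 0.000747). F13a1, coagulation factor XIII, stood at 480, 471, 471, 492 and 469 CPM, and at 93.5, 79.8, 32.4, 88.6, 73.8, 327 and 440 in treated mice 1 to 7 (-1.55 ± 0.48, adjusted p = 0.0346; -2.76 (adjusted p = 0.000279) without the 3). With all 3 kept, its call was lost in fits without 1 library (adjusted p = 0.0541 to 0.0682 when vehicle mouse 1, 2, 3, 4 or 5 or treated mouse 1, 2, 4 or 5 was left out). Csf1r, the M-CSF receptor, did not pass over all mice (-0.50 ± 0.41, adjusted p = 0.469), and was -1.40 (adjusted p = 0.0283) without the 3. The Fc receptor Fcgr1 rose instead, from 0.0875–0.41 to 0.864–27.4 CPM (5.61 ± 0.97, adjusted p = 0.000581), with the 3 macrophage-rich mice highest, and was 3.10 (adjusted p = 0.00497) without them.

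The summed level of neutrophil granule genes was higher in every treated mouse than in any vehicle mouse. Of 35 tested 24 rose and 0 fell, with a median of 1.66, and without mice 4, 6 and 7 21 rose and 0 fell. The list summed to 15400 to 24100 CPM in vehicle and 37700 to 87400 in treated mice. S100a8, a calcium-binding protein of the neutrophil cytoplasm, stood at 6390, 6790, 5630, 2930 and 5770 CPM and 6960 to 24100 (median 20400) (1.68 ± 0.34, adjusted p = 0.00206). Mmp9, the gelatinase, stood at 516, 364, 404, 426 and 398 CPM and 1210 to 1970 (median 1570) (1.91 ± 0.32, adjusted p = 0.000408). The mature markers Ly6g (7.27–14.5 to 32.2–96.1 CPM; 2.83 ± 0.46, adjusted p = 0.000362) and Cxcr2 (7.3–16 to 29.4–219 CPM; 2.86 ± 0.55, adjusted p = 0.0013) rose too. The primary granule genes Mpo (345–788 and 243–1930 CPM; 0.75 ± 0.40, adjusted p = 0.242) and Elane (1130–1520 and 1080–3290 CPM; 0.79 ± 0.28, adjusted p = 0.0628) did not pass, although Elane did without mice 4, 6 and 7, at 1.06 (adjusted p = 0.0193). Whether the RNA came from leukemia cells or from host neutrophils in the sort was not tested.

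Adhesion genes went both ways. Of 27 tested, 6 rose and 4 fell, whereas 5 rose and 7 fell without mice 4, 6 and 7, and 4 rose and 7 fell without treated mouse 7. Without treated mouse 6, 4 rose and 5 fell, and without treated mouse 2 or vehicle mouse 2, 3, 4 or 5, 4 rose and 4 fell. Itga1, the collagen-binding integrin α1, stood at 372, 350, 307, 338 and 337 CPM in vehicle and at 1.03 to 48.8 (median 12.1) in treated mice (-4.19 ± 0.78, adjusted p = 0.00109). The highest treated mouse, mouse 7, was far below the lowest vehicle mouse, and footprints gave -4.44 (adjusted p = 0.00113). With the term for library number, which marks treated libraries alone, its adjusted p was 0.0641. Itga4, the α subunit of VLA-4 that binds VCAM-1 in marrow, fell from 138–171 to 22.9–109 CPM (-1.06 ± 0.26, adjusted p = 0.00852). Thbs1, thrombospondin 1, rose from 61.9, 44.1, 52.3, 46.9 and 71.1 CPM to 212 to 1480 (median 922) (4.05 ± 0.55, adjusted p = 7.45e-05), mouse 4 being the lowest treated one, and was 4.30 (adjusted p = 4.74e-05) without the 3 libraries.

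Of 32 NF-κB and inflammatory genes 18 rose and 1 fell (median 1.15); without mice 4, 6 and 7, 10 rose and 0 fell (median 0.76). Il1b, interleukin 1β, stood at 1.36, 1.44, 1.39, 1.03 and 1.75 CPM in vehicle and 4.17 to 40.6 (median 13) in treated mice (3.40 ± 0.63, adjusted p = 0.000978), and Tnf at 5.55, 5.32, 4.58, 5.23 and 5.16 and 7.9 to 11.4 (median 9.03) (0.86 ± 0.24, adjusted p = 0.0175). Il1b passed without the 3 libraries, at 2.39 (adjusted p = 0.00885), and Tnf was 0.80 (adjusted p = 0.0712). Of 23 immediate early genes 12 rose and 0 fell (median 0.73), among them Jund, a JUN family member (12–16.1 to 24.9–89.8 CPM; 1.44 ± 0.28, adjusted p = 0.00134); without the 3 libraries 4 rose and 2 fell.

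Of 52 interferon-stimulated genes 25 rose and 0 fell with a median of 1.01, but without mice 4, 6 and 7, 9 rose and 0 fell with a median of 0.27. The list summed to 1030 to 1220 CPM in vehicle, 1050 to 1420 in treated mice 1, 2, 3 and 5, and 4120, 1780 and 2880 in mice 4, 6 and 7, the same mice in which macrophage markers were high; the part of macrophage RNA in this was not tested. Rtp4, a chaperone of surface receptors, stood at 1.18, 1.28, 2.12, 3 and 2.06 CPM in vehicle and 6.61 to 139 (median 18.7) in treated mice (4.35 ± 0.67, adjusted p = 0.000219), and at 2.62 (adjusted p = 0.000171) without the 3. Irf7, the amplifier of interferon genes, rose from 8.11–15.4 to 16.4–160 CPM (2.41 ± 0.47, adjusted p = 0.00163) and the ubiquitin-like Isg15 from 0.973–1.67 to 1.85–38.2 (2.81 ± 0.63, adjusted p = 0.00448). Irf7 was 1.22 (adjusted p = 0.013) and Isg15 1.16 (adjusted p = 0.0356) without the 3 libraries.

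The interferon response element (GAAA, any 2 bases, GAAA, both strands) lay in the promoter window of 25 of 40 members with a sequence (62.5%) and of 3.99% of all genes, in 13 of the 20 that passed the test and 12 of the other 20. Isg15 (chr4:156200850-156200921, minus strand) and Ifit3 (chr19:34583348-34583441, plus strand) are shown because both rose and each holds more than 1 match, in capitals; those of Isg15 overlap. Ifit3, an interferon-induced RNA-binding protein, rose from 0.259–0.56 to 1.49–19.8 CPM (4.25 ± 0.70, adjusted p = 0.000386; 2.27 (adjusted p = 0.00192) without the 3 libraries).
Isg15: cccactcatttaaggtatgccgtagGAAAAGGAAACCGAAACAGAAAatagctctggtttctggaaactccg
Ifit3: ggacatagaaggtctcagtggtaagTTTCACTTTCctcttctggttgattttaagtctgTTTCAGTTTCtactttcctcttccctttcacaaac

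Of the lists in the plot of members by list, macrophage markers had the highest median. Of 20 tested 19 rose and 0 fell, with a median of 4.30. Mrc1, the mannose receptor, stood at 1.18, 0.665, 1.14, 1.26 and 2.17 CPM in vehicle and at 14.8, 19.7, 27.9, 194, 8.67, 196 and 257 in treated mice 1 to 7 (6.31 ± 0.86, adjusted p = 7.55e-05). C1qa, a chain of complement C1q, stood at 0.885, 0.473, 1.11, 0.952 and 0.551 CPM and 7.07 to 204 (median 11.9) (6.22 ± 1.01, adjusted p = 0.000323), and Cd5l, a protein secreted by tissue macrophages, at 0.561, 0.63, 0.642, 1.55 and 0.876 and 6.17 to 429 (median 14.4) (6.99 ± 1.11, adjusted p = 0.000276). The rise was not limited to the macrophage-rich mice: in mice 1, 2, 3 and 5 alone 11 of 20 rose and 0 fell with a median of 2.08, and Mrc1, C1qa and Cd5l gave 3.80, 3.49 and 3.58 (adjusted p = 2.4e-05, 0.000962 and 0.000303). Adgre1, which encodes F4/80, was the member that did not pass, at 344–462 CPM in vehicle and 252–684 in treated mice (-0.12 ± 0.25, adjusted p = 0.805). Of 16 basophil, mast cell and eosinophil markers tested 3 rose, 1 fell and 12 did not pass, and the summed list overlapped between the groups (479 to 679 CPM in vehicle, 325 to 867 in treated mice). The eosinophil receptor Ccr3 rose, highest again in mice 4, 6 and 7, from 0.525–1.49 to 9.41–147 CPM (5.96 ± 0.88, adjusted p = 0.000151; 3.58 (adjusted p = 0.000303) without the 3), while Siglecf fell from 131–144 to 29.6–81.8 (-1.21 ± 0.21, adjusted p = 0.000491).

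**Figure D4:**
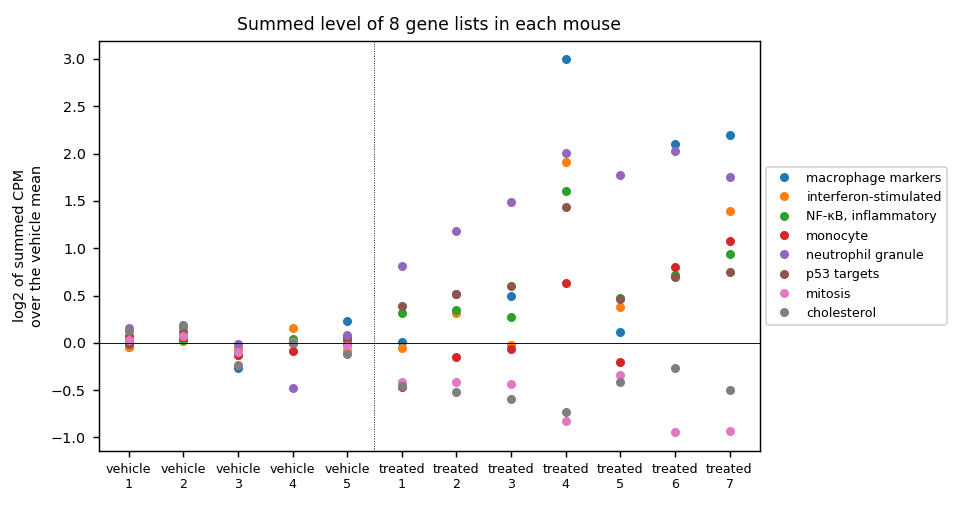
Summed CPM of 8 gene lists in each of the 12 mice, as log2 of the ratio to the vehicle mean (y axis; 0 is the vehicle mean). Macrophage markers stand highest in treated mice 4, 6 and 7 and near the vehicle level in treated mice 1 and 5, whereas the neutrophil, p53 and NF-κB lists are above 0, and the mitosis and cholesterol lists below 0, in all 7 treated mice.

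Of 26 cholesterol genes 9 fell and 0 rose (median -0.37), and 7 fell without mice 4, 6 and 7 and 5 without vehicle mouse 1, 2 or 4. Sqle, squalene epoxidase, stood at 57.9, 64.6, 39.5, 47.9 and 48.3 CPM in vehicle and 11.3 to 24 (median 21.5) in treated mice (-1.40 ± 0.30, adjusted p = 0.00343). The groups did not overlap, and without the 3 macrophage-rich libraries Sqle was -1.28 (adjusted p = 0.0327). The sterol element TCACNCCAC lay in 1 of 18 members with a promoter sequence and in 1.44% of all genes.

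Many calls among energy and iron genes were lost without mice 4, 6 and 7. Of 73 nuclear genes of oxidative phosphorylation 18 rose and 0 fell (median 0.40), but in 5 of the 73 alone all treated mice lay above all vehicle mice, and without mice 4, 6 and 7, 0 passed (median 0.20). Without 1 vehicle mouse the count that rose was 5 to 11, without treated mouse 4 it was 11 and without treated mouse 3 it was 31. Of 24 iron and antioxidant genes 12 rose and 0 fell, and 6 rose without the 3 libraries. Hmox1, heme oxygenase 1, rose from 14.1–18.1 to 31.5–211 CPM (2.60 ± 0.54, adjusted p = 0.0027; 1.33 (adjusted p = 0.0689) without the 3), and the ferritin heavy chain Fth1 from 638–799 to 988–5680 (1.59 ± 0.37, adjusted p = 0.00576; 0.77 (adjusted p = 0.0718)). Both are abundant in macrophages, whose part in these values was not tested. Of 24 glycolysis genes 8 rose and 2 fell (5 and 2 without the 3 libraries). The glucose transporter Slc2a3 rose from 22.4–37.2 to 62.7–173 CPM (1.71 ± 0.33, adjusted p = 0.00125) and was 1.52 (adjusted p = 0.00647) without the 3.

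**Figure D5:**
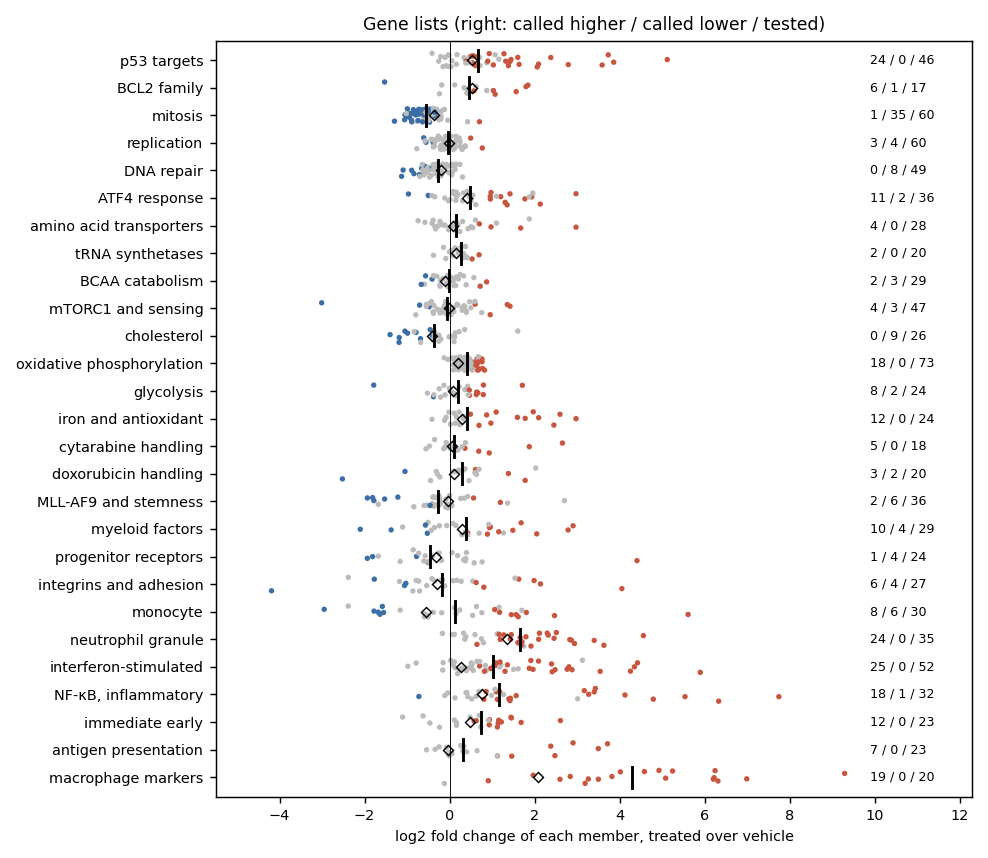
Log2 fold change (x axis) of each tested member of 27 gene lists (rows), with red and blue for members called higher and lower; the bar is the list's median and the diamond its median without treated mice 4, 6 and 7. Bar and diamond lie on the same side of 0 for the p53, mitosis, cholesterol and neutrophil lists and on opposite sides for the monocyte and antigen presentation lists (antigen presentation 0.32 and -0.032).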

How the data were processed

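The deposited RNA table holds whole-number counts per gene. The submitters' processing notes name cutadapt, Bowtie2, STAR, SAMtools, featureCounts and the builds GRCm38 and mm10 without roles, and Smart-seq2 as described keeps no strand and no molecular identifiers. Libraries were matched to mice by their labels. The counts were fitted with edgeR 4.0.16 in R 4.3.3 (TMM, filterByExpr, robust quasi-likelihood) over 4 RNA groups of 23 libraries with 19 residual degrees of freedom, and treated sgScramble was compared with vehicle. A call is a Benjamini-Hochberg adjusted p under 0.05. CPM were computed with TMM library sizes. A fold change is log2 of treated over vehicle. The edgeR p-values set it against the spread between mice within groups, estimated over all 23 libraries. Since the 12 sgScramble samples descend from 1 donor leukemia, that is no spread between leukemias. The scripts were tested on simulated data. Named genes were the 12 higher and 12 lower protein-coding genes of smallest p with no overlap and at least 10 CPM, up to 6 called members of each list, and a fixed panel, with further list members added where a paragraph needed them. The members and lists were chosen with earlier results of these data known. Alternatives used DESeq2 1.42.0, limma 3.58.1, other scaling and filters, and libraries left out. Promoters and starts came from RefSeq (GRCm38.p6). Some list members are not reported here by name.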

Additional observations from a re-analysis of the deposited data

Results flagged for a closer look

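Dixon's test was run on 196 sets of CPM, each of 1 named gene in the treated or the vehicle mice. In 33 of them the extreme mouse lay farther from the next than the 95% limit. Chance passes that limit in about 1 of 20 independent sets of normal values. These sets come from the same mice, their genes were chosen partly by their results, and CPM was not tested for normality. The 33 therefore cannot be compared with that rate. Most of the 33 were treated mouse 4. It was high, in CPM with the next mouse after it, for Cd38 (494, next 219), Ccdc122 (65.5, next 35.3), Bank1 (60.9, next 43.1), Phlda3 (67.3, next 21.2), Cdkn1a (715, next 336), Ccng1 (1500, next 763) and Plk2 (95.3, next 20.4). The same held for Ada (79.2), Bax (232), Slc3a2 (150), Chac1 (11.2), Trib3 (5.37), Samhd1 (1000), Hoxa9 (386), Spi1 (924), Isg15 (38.2), Jund (89.8), Cd5l (429) and Fth1 (5680). It was low for Bcl2 (9.89, next 23.3), Sowahc (8.15), Mki67 (41.7, next 195), Runx1 (7.8) and Itga4 (22.9). Treated mouse 7 was high for Slc52a3 (24 CPM), Mcl1 (776) and Cxcr2 (219), and treated mouse 6 for Slc2a3 (173). Among vehicle mice, mouse 5 was high for Retnla (1.18 CPM), mouse 2 for Tmem135 (96) and Ccng1 (345), and mouse 1 for Bax (67) and Cxcr2 (16).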

How the results depend on the processing

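Of 85 called genes given by mouse, 55 passed in the same direction under all 24 alternatives, and 0 reversed under any. The count of 2779 called genes became 636 with the mice that also had a footprint library, 1479 with a replicate block, 1646 with a term for library numbers from 17 up, 5702 with voom and quality weights and 1468 without treated mice 4, 6 and 7. Without 1 library it ranged from 1834 (without vehicle mouse 4) to 3086 (without treated mouse 3). Of called genes 66.4% were higher, against 50.5% with voom and 56.1% without the 2 libraries that stood apart (treated mouse 4 and an sgOgfod1 treated library). The median of antigen presentation genes turned to -0.00814 with voom and -0.0319 without mice 4, 6 and 7. That of erythroid markers (-0.322) turned to 0.211 with the footprint mice, 0.243 with the 12 libraries alone, 0.0426 with the block, 0.198 with voom, 0.223 without mice 4, 6 and 7 and 0.195 without vehicle mouse 3, and ranged from -1.11 (without treated mouse 3) to 0.195 without 1 library. That of basophil, mast and eosinophil markers (0.348) turned to -0.398, -0.121 and -0.353 with the footprint mice, voom and without mice 4, 6 and 7. The cause was not tested, except that the smaller sets hold fewer samples. The set of footprint mice also lacks treated mice 4, 6 and 7, so it overlaps with the setting that leaves those 3 out. No vehicle library is numbered from 17 up, so the term for those numbers cannot be told apart from part of the treatment effect. The replicate numbers name different mice: the correlation of deviations between same-numbered mice was 0.115, -0.0746, 0.54, -0.0378 and 0.0247, and of the 5 vehicle mice, mouse 3 alone correlated best with its own number, so the block result of 1479 is given here without a pairing. Vehicle mouse 3 and treated mouse 3 also had the most genes with at least 10 counts in their groups (25005 and 26460). Whether their libraries share a technical trait was not tested. Diet and drugs changed together, the libraries give no molecule counts, and a gene near 3 counts a library (0.023 to 0.088 CPM) is at the limit of detection.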
